A study of Mus musculus with 12 samples.

Results

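The genes described here build, fill and regulate the acidic interior of the lysosome: the subunits of its proton pump, its proteases (the cathepsins), its main membrane glycoproteins and a few of its regulators. Members were the genes of the count tables whose Ensembl ID maps to a protein-coding mouse symbol starting Atp6v or Atp6ap, together with Lamp1, Lamp2, 11 cathepsin genes (Ctsa, Ctsb, Ctsc, Ctsd, Ctsf, Ctsh, Ctsk, Ctsl, Ctso, Ctss and Ctsz), Tfeb, Tfe3 and Mcoln1. The rule found 42 members among 48709 genes. No measured value was used in it, but the members were chosen with earlier results of these data known. RNA was sequenced from mouse embryonic fibroblasts of the C57BL/6 strain in 4 groups of 3 samples. A group of each genotype was kept in normoxia, and another was collected after 24 h in a hypoxia workstation whose oxygen level is not given in the labels. The genotypes are wild type (WT) and TAZKo, the label for cells without tafazzin, the enzyme that remodels cardiolipin in mitochondria. The labels do not say how the TAZKo line was made, whether it is 1 clone, or whether the 3 samples of a group came from separate cultures, so p-values measure the spread between samples, which may be technical.

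The proton pump (V-ATPase) has a cytosolic V1 sector that splits ATP and a membrane V0 sector that passes protons into the lumen. A and B subunits form the catalytic head, D, F and the peripheral stalk subunits C, E, G and H connect it to the membrane, and the a, c, c'', d and e subunits make up V0. The low pH that the pump maintains lets cathepsins cleave proteins. The heavily glycosylated proteins LAMP1 and LAMP2 line the membrane, and MCOLN1 releases calcium from the lumen. TFEB and TFE3 are transcription factors that enter the nucleus when the kinase mTORC1 is inactive and that bind E-box sequences with the core CACGTG near the start of many lysosomal genes.

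Total counts per sample ran from 21039451 to 31204510. Levels are given as CPM, the counts of a gene relative to its library's total after scaling with TMM (trimmed mean of M values), and 3 counts were worth 0.0927 to 0.15 CPM. The transcript of the targeted gene, Taz, was not lower in the TAZKo samples (42.2 CPM against 34.6 in normoxia and 33.8 against 25.1 in hypoxia). The labels do not place the change within the gene, so a count over the whole gene does not check it, and every genotype direction below rests on the labels. Vegfa, a textbook hypoxia target, rose from 54.4 to 355 CPM in WT and from 111 to 301 CPM in TAZKo samples. WT normoxia sample 1 stood apart from the other 2 of its group, with a chi-square per gene of 36.7 and 43.5 against them, where the other pairs within a group gave 2.9 to 13.99. To a lesser degree sample 1 also stood apart in WT hypoxia (13.71 and 13.99, against 3.67 between samples 2 and 3). The same held in TAZKo normoxia (8.69 and 10.97, against 2.9). Of 8 fibroblast markers, Col1a1, Col3a1, Vim, Fn1, Pdgfra and Pdgfrb were abundant, Col1a2 was at 1.51 to 5.93 CPM and Thy1 at or below 0.291 CPM in every sample. Summed epithelial markers were at 97.9 to 152 CPM, chiefly from Krt18, endothelial ones at 1.17 to 3.9 CPM and osteoclast ones at 0.359 to 4.73 CPM.

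The 3 markers of the gene set, the pump subunit gene Atp6v1h, Lamp1 and Ctsd, had a summed level of 662 to 1160 CPM in every sample. They are members by the rule, so this gives their level and does not check the label of the set. Of the 42 members, 32 passed the low-count filter and were tested. The other 10 had a mean of at most 0.192 CPM in any group. Among them, Atp6v1g3, Atp6v0d2, Atp6v1fnb and Atp6ap1l had 0 counts in all 12 samples. Atp6v1fnb is named as a neighbour of a pump gene and does not encode a subunit. The pump isoform genes Atp6v1b1, Atp6v1c2 and Atp6v1e2, known from kidney, lung or testis, had 28, 41 and 1 counts over all samples together. The cathepsin genes Ctss, Ctsc and Ctsh, typical of immune cells, had 3, 3 and 2 counts. With Ctsk, the osteoclast collagenase, 11 members stayed under 1 CPM in every group. The macrophage genes Adgre1 and Tyrobp had 0 counts in all 12 samples and Ptprc had 1.

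Levels per kilobase were divided by the length of all annotated exons of a gene joined together, so their order depends on that annotation. On this scale Lamp1 had the highest level of the members in WT normoxia, at 170 CPM per kb. Ctsz, a carboxypeptidase, was second at 119. Ctsd and Ctsb, the main aspartic and cysteine proteases of the lysosome, followed at 75.7 and 75.6, which does not separate them. Pump genes ranged from 61.8 CPM per kb for the accessory gene Atp6ap1, through 53.6 for Atp6v0d1, 50.2 for Atp6v1g1 and 37.6 for Atp6v1a, to 8.03 for Atp6v1h. Tfe3 stood at 11.3 and Tfeb at 6.91 CPM per kb. Atp6v0e2, Atp6v1g2, Atp6v0a4, Ctsf, Ctso and Ctsk lay between 0.287 and 1.99 CPM per kb. Not divided by length, the WT normoxia means were 457 CPM for Ctsb, 455 for Lamp1, 309 for Lamp2 and 172 for Ctsz.

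RefSeq start windows (GRCm38.p6, from 250 bases before to 50 bases after the annotated start) were found for 33 of the 42 members, in 40 windows. CACGTG, a palindrome that reads the same on both strands, occurred in windows of 10 of the 33 members. It was present in 8.09% of the 27025 genes of the RefSeq table. The longer TCACGTGA, which contains it, occurred in 6 members (Atp6v0d1, Atp6v0e, Atp6v1a, Ctsa, Ctsd and Mcoln1) against 1.12% of genes. The full palindromic CLEAR element of 10 bases, which contains both, occurred in 0 members and 0.37% of genes. ACGTG, which lies inside CACGTG and is also a form of the core that HIF-1 binds, was found on either strand in 12 members against 21.8% of genes. The other HIF-1 form, GCGTG, was found in 18 members against 35.2%. Stretches of 60 bases around the hexamer are shown for 6 genes to which the hypoxia results below return, each on its gene's strand from 5′ to 3′, with CACGTG in capitals.

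Lamp1: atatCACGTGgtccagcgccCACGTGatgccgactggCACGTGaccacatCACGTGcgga
Mcoln1: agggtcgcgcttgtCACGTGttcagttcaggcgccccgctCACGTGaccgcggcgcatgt
Atp6v0b: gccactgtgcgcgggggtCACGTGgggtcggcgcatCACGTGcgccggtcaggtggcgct
Ctsa: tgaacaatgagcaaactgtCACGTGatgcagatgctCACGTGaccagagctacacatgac
Ctsd: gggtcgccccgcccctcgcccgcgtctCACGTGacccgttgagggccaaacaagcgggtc
Atp6v1a: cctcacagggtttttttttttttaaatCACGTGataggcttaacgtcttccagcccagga

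The Lamp1 stretch (chr8:13159096-13159155, plus strand) held 4 copies in the 60 bases, whose first bases lay at -61, -45, -28 and -15 from the start. Mcoln1 (chr8:3500434-3500493, plus strand) had copies at -71 and -45, and Atp6v0b (chr4:117887324-117887383, minus strand) at -36 and -18. In Ctsa (chr2:164833742-164833801, plus strand) the 2 copies lay on either side of the start, at -12 and 5. Ctsd (chr7:142387893-142387952, minus strand) had 1 copy at -98 in the stretch shown and a second at -245. Atp6v1a (chr16:44139358-44139417, minus strand) had 1 copy at -131. The other 4 members with the hexamer had 1 copy each, at -3 in Atp6v0d1, 3 in Atp6v0e, -79 in Ctsf and -236 in Ctsl. A match of letters is a description of the sequence and does not show binding.

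Most of the tested members were called higher after 24 h of hypoxia, in both genotypes. In WT cells, 21 of the 32 tested members rose and 5 fell at an adjusted p under 0.05 (edgeR quasi-likelihood test, Benjamini-Hochberg adjustment over 14408 genes), which is 81.2% of them, where 51% of all genes tested were called, 26% higher and 25% lower. In TAZKo samples 20 rose and 3 fell, or 71.9%, where 43.8% of all genes were called, 22.2% higher and 21.6% lower. The median log2 change of the tested members was 0.40 in WT and 0.41 in TAZKo samples, and that of all genes tested was 0.00894 and -0.00875. The 2 hypoxia comparisons share no samples, but they come from one fit with a shared scaling and a shared estimate of the spread. Of the members that rose, 18 did so in both genotypes, which is 18 of 21 in WT and 18 of 20 in TAZKo samples, and 3 fell in both (Tfeb, Atp6v0a1 and Ctso). None was called in opposite directions. The same counts were not taken over all genes, so they do not show a trait particular to the members. In bulk RNA, fewer cells of a type and less RNA per cell cannot be told apart.

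**Figure D1:**
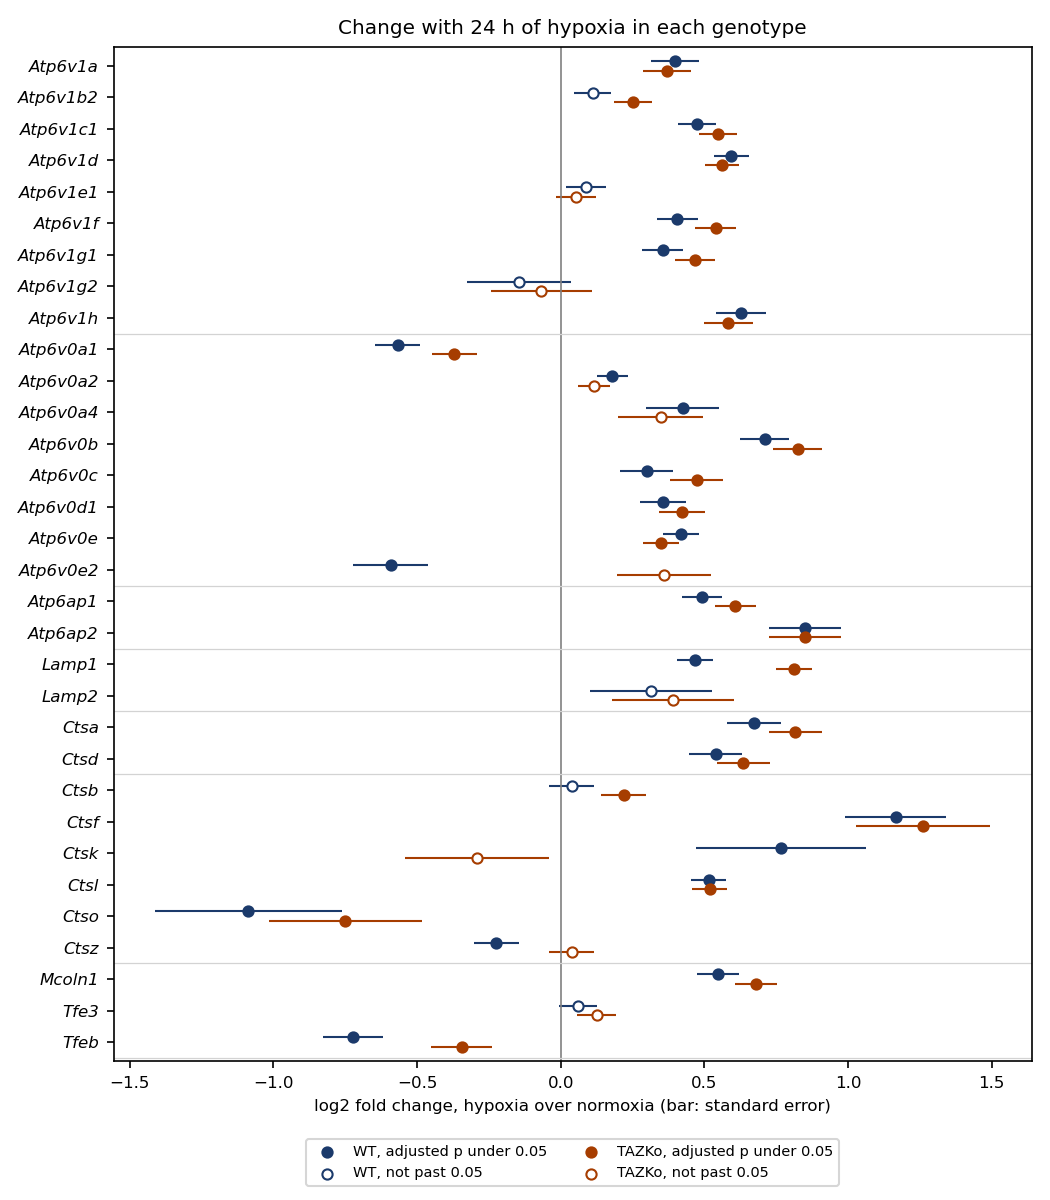
Log2 fold change from normoxia to 24 h of hypoxia (horizontal axis) for the 32 tested members, grouped by role from V1 subunit genes at the top to regulators at the bottom; dark blue, WT; brown, TAZKo; bars, standard error; filled points, adjusted p under 0.05. Most points lie to the right of 0 in both genotypes, and Atp6v0a1, Ctso and Tfeb lie to the left in both.

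Of the 9 tested V1 genes, 6 rose in WT and 7 in TAZKo samples, and none fell. Atp6v1h, which encodes the H subunit that couples the head to the stalk, was at 67.8, 82.6 and 84.5 CPM in WT normoxia samples 1 to 3 and at 132, 115 and 116 CPM in WT hypoxia. In TAZKo samples it went from 78.5, 78.8 and 71 CPM to 119, 114 and 109 CPM. All 6 hypoxic samples lay above all 6 normoxic ones. The log2 change was 0.63 (SE 0.0862, adjusted p = 4.13e-05) in WT and 0.58 (SE 0.086, adjusted p = 0.00011) in TAZKo samples. Atp6v1d, the gene of the central shaft, was at 53.3, 57.2 and 58.6 CPM in WT normoxia and 85.6, 82.3 and 87.4 CPM in WT hypoxia, again without overlap. Its log2 change was 0.59 (SE 0.0602, adjusted p = 2.52e-06) in WT and 0.56 in TAZKo samples. Atp6v1a, for the catalytic A subunit, rose by a log2 change of 0.40 in WT and 0.37 in TAZKo samples. Atp6v1c1, Atp6v1f and Atp6v1g1 rose by 0.36 to 0.55 on the log2 scale across the 2 genotypes. Atp6v1b2, for the B subunit, rose by 0.25 in TAZKo samples (adjusted p = 0.00736) and had a value of 0.11 in WT (adjusted p = 0.177). With library size alone the TAZKo value of Atp6v1b2 was 0.155 (adjusted p = 0.0583). Atp6v1e1 had log2 values of 0.09 and 0.05 and Atp6v1g2, the neuronal G isoform gene, of -0.15 and -0.07, with no call in either genotype.

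The V0 genes were more divided. Atp6v0b, for the c'' subunit of the proton-carrying ring, was at 78.6, 69.2 and 68.7 CPM in WT normoxia and 130, 104 and 120 CPM in WT hypoxia. It was at 67.7, 65.7 and 63.6 CPM in TAZKo normoxia and 125, 112 and 113 CPM in TAZKo hypoxia. The lowest hypoxic sample was thus above the highest normoxic one in both genotypes, with log2 changes of 0.71 (SE 0.0844, adjusted p = 1.12e-05) and 0.82 (SE 0.0845, adjusted p = 4.26e-06). Atp6v0e and Atp6v0d1, for the e and d subunits, rose in both genotypes by 0.35 to 0.42 on the log2 scale. Atp6v0c, for the main ring subunit, rose by 0.30 in WT and 0.47 in TAZKo samples. The WT call of Atp6v0c ended without WT normoxia sample 2 or 3 or without WT hypoxia sample 1 or 3 (adjusted p = 0.05 to 0.16, log2 0.17 to 0.28). It also ended with upper quartile scaling (log2 0.24, adjusted p = 0.059), with library size alone (log2 0.19, adjusted p = 0.116), with no filter (adjusted p = 0.0564) and with only the samples compared in the fit (adjusted p = 0.107).

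The 4 genes that encode the a subunit, the part that sets where the pump resides, did not move together. Atp6v0a1, the isoform gene best known from neurons, was at 107, 90.1 and 92.7 CPM in WT normoxia and 70.9, 60.5 and 63.8 CPM in WT hypoxia. TAZKo values went from 87.3, 79.5 and 79.3 CPM to 64.9, 64.5 and 61.1 CPM. Every hypoxic sample lay below every normoxic one, and the log2 change was -0.57 (adjusted p = 4.55e-05) in WT and -0.37 (adjusted p = 0.00183) in TAZKo samples. Atp6v0a2, the Golgi and endosome isoform gene, rose by 0.18 in WT (adjusted p = 0.014) and had a value of 0.12 in TAZKo samples (adjusted p = 0.104). The WT call of Atp6v0a2 ended without WT normoxia sample 2 or 3 (adjusted p = 0.0537 and 0.118), with upper quartile scaling and with library size alone (adjusted p = 0.097 and 0.282), with no filter (adjusted p = 0.431), with only the samples compared (adjusted p = 0.151) and with WT normoxia sample 1 as the TMM reference (adjusted p = 0.0631). Atp6v0a4, the kidney isoform gene, had a mean of 5.82 CPM in WT normoxia and 7.85 CPM in WT hypoxia (log2 0.42, adjusted p = 0.0134), a call lost with only the samples compared (adjusted p = 0.0663).

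As a share of the summed level per kb of Atp6v0a1, Atp6v0a2, Atp6v0a4 and Tcirg1, the gene of the a3 isoform, Atp6v0a1 made up 23.4% ± 0.407 (SD, n = 3) in WT normoxia and 17.1% ± 0.76 in WT hypoxia. In TAZKo samples it made up 22.3% ± 0.286 in normoxia and 17.5% ± 0.564 in hypoxia. Tcirg1 held 48.4% to 50.3% in the 4 groups, and Atp6v0a2 went from 24.7% to 30.2% in WT and from 28.2% to 30.9% in TAZKo samples. Atp6v0a4 was at 1.02% to 2.73%. In the B, C, d and E families 1 gene (Atp6v1b2, Atp6v1c1, Atp6v0d1 and Atp6v1e1) made up at least 99.6% of the sum in each group. Levels per kb were also summed over the members of each sector. Tcirg1 is not a member, so the V0 sums leave it out and are not those of the whole sector. In WT cells the V1 sum went from 225 ± 2.15 to 288 ± 10.7 CPM per kb and the V0 sum from 154 ± 8.52 to 198 ± 16.7. In TAZKo samples the V1 sum went from 205 ± 6.18 to 276 ± 7.88 and the V0 sum from 141 ± 5.94 to 190 ± 3.72.

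**Figure D2:**
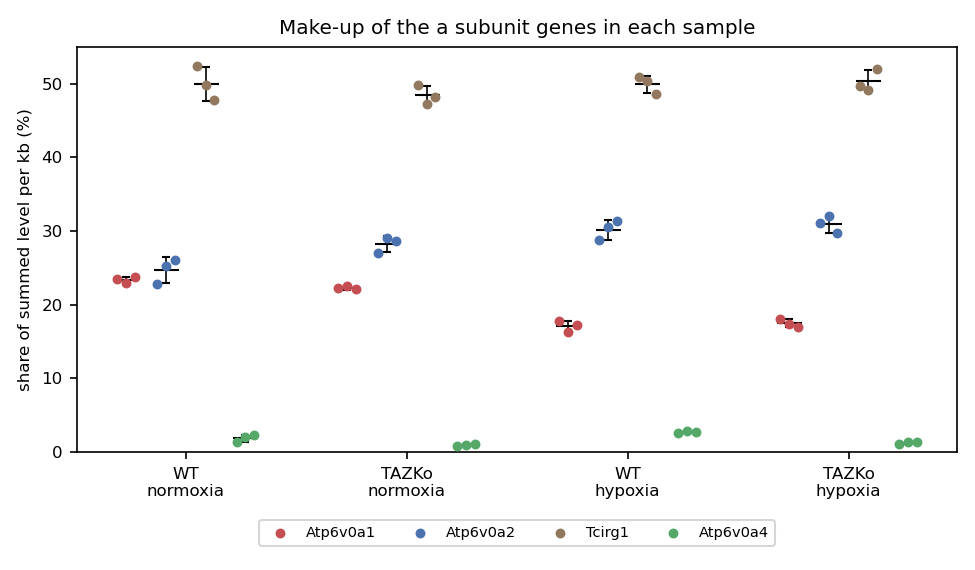
Share of each of the 4 a subunit genes in their summed level per kb of exon (vertical axis, percent) in every sample of the 4 groups; points, samples; horizontal bars with error bars, mean and SD. Atp6v0a1 (red) lies at 22.1% to 23.8% in the 6 normoxic samples and at 16.3% to 18.1% in the 6 hypoxic ones.

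Both tested accessory genes rose in both genotypes. Atp6ap2, whose product (the prorenin receptor) assists pump assembly, was at 63.4, 95.8 and 92.6 CPM in WT normoxia and 152, 146 and 156 CPM in WT hypoxia. The TAZKo samples went from 73.3, 87.9 and 88.7 CPM to 146, 160 and 145 CPM. The groups did not overlap, although sample 1 was low in each normoxic group. The log2 change was 0.85 in each genotype (SE 0.126, adjusted p = 7.93e-05 in WT; SE 0.125, adjusted p = 0.00011 in TAZKo samples), a 1.8-fold rise, and without WT normoxia sample 1 the WT value was 0.68. Atp6ap1 rose by 0.49 in WT and 0.61 in TAZKo samples.

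Lamp1 went from 434, 459 and 473 CPM in WT normoxia to 666, 585 and 636 CPM in WT hypoxia. TAZKo values went from 427, 472 and 458 CPM to 803, 813 and 768 CPM. The 4 groups fell into 3 separate bands, with the normoxic samples of both genotypes together, WT hypoxia above them and TAZKo hypoxia highest. The log2 change was 0.47 (SE 0.0625, adjusted p = 3.35e-05) in WT and 0.81 (SE 0.0628, adjusted p = 3.15e-07) in TAZKo samples. Lamp2 was at 176, 359 and 391 CPM in WT normoxia, 372, 389 and 391 CPM in WT hypoxia, 287, 388 and 402 CPM in TAZKo normoxia and 476, 478 and 460 CPM in TAZKo hypoxia. Sample 1 was the lowest of each normoxic group for Lamp2, and the log2 values of 0.31 (adjusted p = 0.238) and 0.39 (adjusted p = 0.155) were not called. Without WT normoxia sample 1 they were 0.03 in WT (adjusted p = 0.817) and 0.39 in TAZKo samples (adjusted p = 0.0024). With no filter both were called (log2 0.23, adjusted p = 0.00776 in WT; log2 0.36, adjusted p = 1.32e-05 in TAZKo samples), and with only the samples compared the TAZKo value was (adjusted p = 0.00327).

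**Figure D3:**
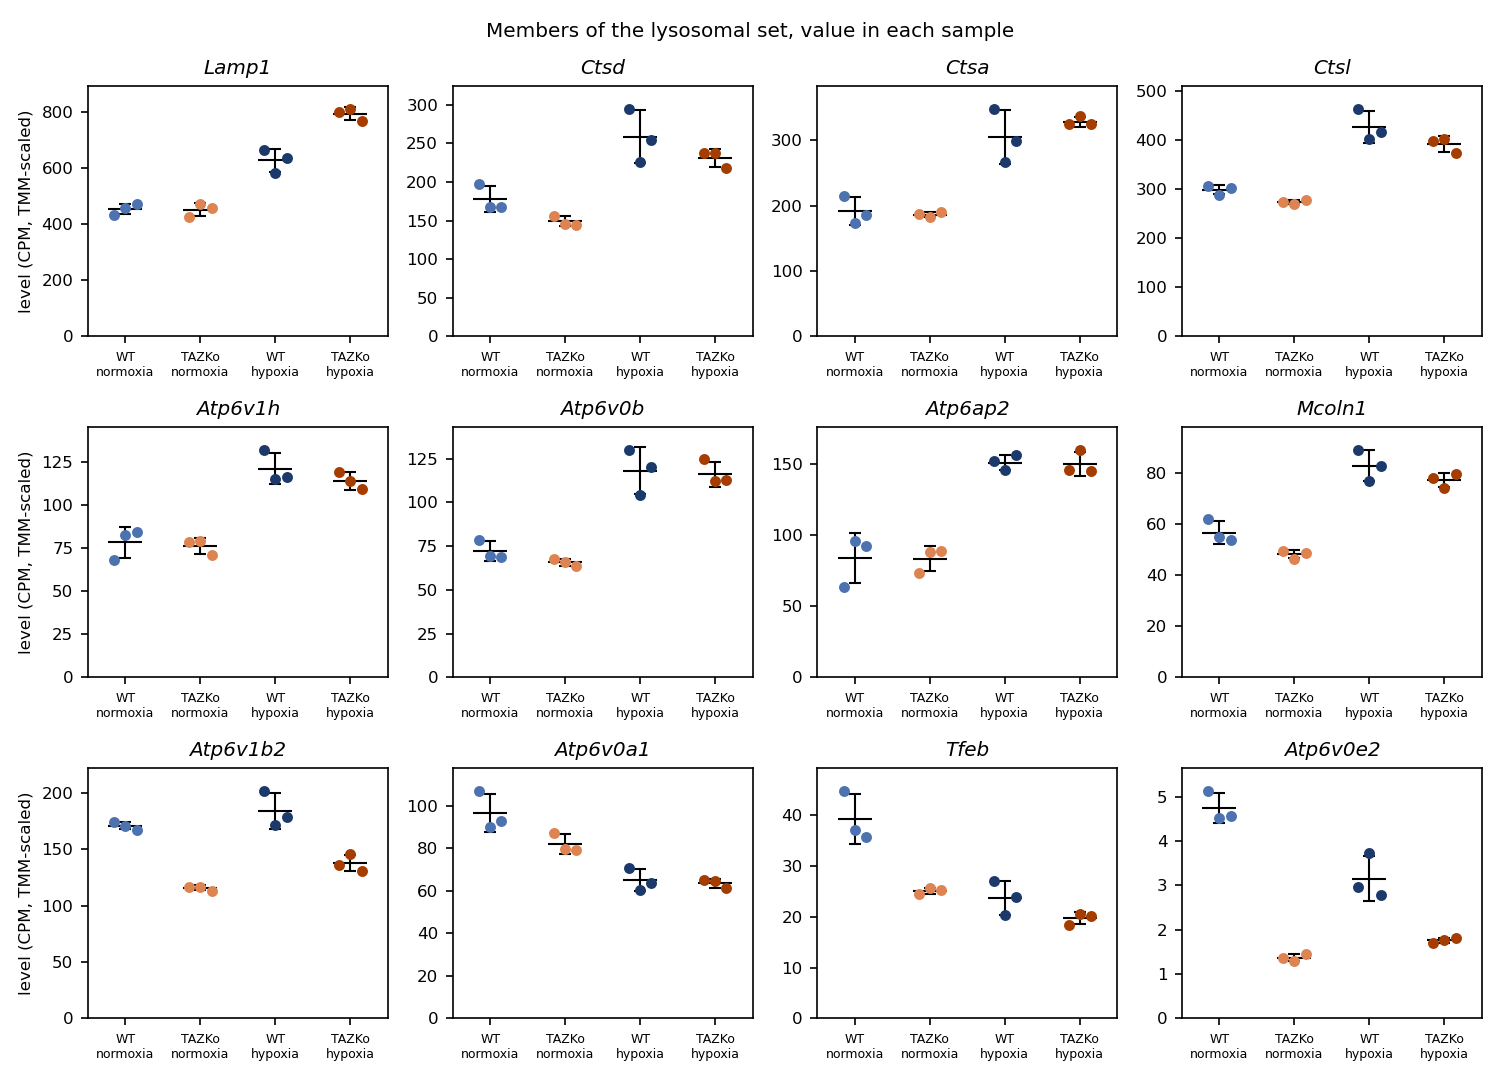
Level of 12 members in each sample (vertical axes, CPM after TMM scaling, starting at 0) in the 4 groups; points, samples; horizontal bars with error bars, mean and SD. Lamp1 is highest in TAZKo hypoxia, at 768 to 813 CPM, Atp6v1b2 is lower in TAZKo than in WT samples in both conditions, and Tfeb is highest in WT normoxia.

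Among the proteases, Ctsa, the carboxypeptidase that also stabilises lysosomal sialidase and galactosidase, went from 215, 173 and 186 CPM in WT normoxia to 348, 267 and 299 CPM in WT hypoxia. TAZKo samples went from 187, 182 and 190 CPM to 324, 337 and 324 CPM. The log2 changes were 0.67 (SE 0.0926, adjusted p = 4.23e-05) and 0.82 (SE 0.0927, adjusted p = 1.12e-05), with no overlap between normoxia and hypoxia. Ctsd was at 197, 168 and 168 CPM in WT normoxia, 295, 226 and 254 CPM in WT hypoxia, 156, 146 and 144 CPM in TAZKo normoxia and 238, 237 and 218 CPM in TAZKo hypoxia. Its hypoxic samples lay above the normoxic ones within each genotype (log2 0.54, SE 0.0919, adjusted p = 0.000256 in WT; log2 0.64, SE 0.0921, adjusted p = 9.4e-05 in TAZKo samples). Ctsl, an endopeptidase, was at 305, 288 and 302 CPM in WT normoxia, 463, 401 and 416 CPM in WT hypoxia, 273, 269 and 277 CPM in TAZKo normoxia and 398, 402 and 373 CPM in TAZKo hypoxia. It rose by 0.52 on the log2 scale in both genotypes (SE 0.0609, adjusted p = 1.06e-05 and 1.55e-05).

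Ctsb did not follow these 3. It was at 476, 436 and 459 CPM in WT normoxia and 540, 428 and 441 CPM in WT hypoxia, which overlap (log2 0.04, adjusted p = 0.711). In TAZKo samples it went from 487, 467 and 486 CPM to 571, 573 and 533 CPM (log2 0.22, adjusted p = 0.0359). That call ended without WT normoxia sample 3, without any 1 of the TAZKo normoxia samples and without TAZKo hypoxia sample 1 or 2 (log2 0.19 to 0.23, adjusted p = 0.0698 to 0.113), and with library size alone (adjusted p = 0.201), upper quartile scaling (adjusted p = 0.0594) or scaling against WT normoxia sample 1 (adjusted p = 0.058). Ctsz fell by 0.22 on the log2 scale in WT (adjusted p = 0.0291) and had a value of 0.04 in TAZKo samples. The WT call of Ctsz ended without WT normoxia sample 1 (-0.13, adjusted p = 0.0897), WT hypoxia sample 2 (-0.17, adjusted p = 0.126) or WT hypoxia sample 3 (-0.22, adjusted p = 0.0742), and with only the samples compared (adjusted p = 0.0531). Of the 3 scarce cysteine cathepsins, Ctsf rose from a mean of 3.52 to 7.93 CPM in WT and from 1.02 to 2.52 CPM in TAZKo samples (log2 1.17 and 1.26). Ctso went from 2.85 to 1.34 CPM and from 4.82 to 2.86 CPM (log2 -1.09 and -0.75, adjusted p = 0.0124 and 0.0356). The Ctso calls ended in WT without WT normoxia sample 3 (adjusted p = 0.053) and in TAZKo samples without any 1 of the TAZKo normoxia samples or TAZKo hypoxia sample 1 or 2 (adjusted p = 0.0686 to 0.132). Ctsk rose in WT from 0.434 to 0.757 CPM (adjusted p = 0.0439), a call lost without any 1 of the WT normoxia samples, TAZKo normoxia sample 1, WT hypoxia sample 1 or 3 or TAZKo hypoxia sample 2 or 3 (adjusted p = 0.0514 to 0.155) and with the replicate block (adjusted p = 0.0515). That call of Ctsk was also lost with upper quartile scaling, library size alone, the DESeq2 test, no filter, lane as a covariate, only the samples compared or WT normoxia sample 1 as the TMM reference (adjusted p = 0.0563 to 0.153).

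The genes of the 2 transcription factors differed. Tfeb was at 44.8, 37.1 and 35.6 CPM in WT normoxia and 27, 20.4 and 23.8 CPM in WT hypoxia. The TAZKo samples went from 24.5, 25.7 and 25.2 CPM to 18.4, 20.6 and 20.2 CPM. Hypoxic samples lay below normoxic ones in each genotype, with log2 changes of -0.72 (SE 0.105, adjusted p = 6.48e-05) in WT and -0.34 (SE 0.106, adjusted p = 0.0177) in TAZKo samples. The TAZKo call ended without TAZKo normoxia sample 2 (log2 -0.33, adjusted p = 0.0526) or TAZKo hypoxia sample 1 (log2 -0.30, adjusted p = 0.0716). Tfe3 was at 115, 98.1 and 101 CPM in WT normoxia, 116, 104 and 107 CPM in WT hypoxia, 105, 101 and 102 CPM in TAZKo normoxia and 110, 115 and 112 CPM in TAZKo hypoxia. These values span a narrow range, and neither log2 value (0.06 and 0.12) was called (adjusted p = 0.469 and 0.149). Without WT normoxia sample 1 the TAZKo value of Tfe3 was called (log2 0.12, adjusted p = 0.0466). The channel gene Mcoln1 went from 61.8, 54.8 and 53.6 CPM to 89.1, 76.9 and 82.6 CPM in WT and from 49.6, 46.5 and 48.7 CPM to 78.2, 74.3 and 79.5 CPM in TAZKo samples. It rose without overlap by 0.55 (SE 0.0719, adjusted p = 2.74e-05) and 0.68 (SE 0.0721, adjusted p = 5.9e-06).

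The samples numbered 2 were sequenced in lane 4 in normoxia and lane 5 in hypoxia, per the names of the tables, and the other numbers kept their lane. With lane as a covariate, 25 members were called with hypoxia in WT and 23 in TAZKo samples. The summed level of 8 macrophage markers was 6.52 to 8.47 CPM in the normoxic samples and 10.3 to 16.8 CPM in the hypoxic ones and came mainly from Cd14 and Csf1r. Its part in the result was not tested, and Adgre1 and Tyrobp were at 0 in both conditions.

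The members with CACGTG in a start window can be set beside their hypoxia response. All 10 were called higher with hypoxia in both genotypes (median log2 change 0.53 in WT and 0.66 in TAZKo samples). Of the 16 tested members whose windows lacked it, 7 were called higher and 5 lower in WT, and 5 higher and 3 lower in TAZKo samples (medians 0.19 and 0.24). The other tested members had no window and are left out of this comparison. Of these, Atp6v1h, Atp6v1c1 and Atp6v1g1 rose in both genotypes, Atp6v0a2 in WT alone, and Atp6v1b2 and Ctsb in TAZKo samples alone. Among all tested genes with a window, 32.5% of the 1206 with the hexamer and 25.5% of the 9094 without it were called higher in WT, and 28.5% and 21.2% in TAZKo samples. In the shorter window from 100 bases before to 50 after the start, 8 members held CACGTG, against 5.0% of genes. Atp6ap2, which had the highest log2 change with hypoxia among members at 10 CPM or more in a compared group, has no CACGTG in its window, but has an ACGTG. These counts describe sequence and response side by side, and no test of the members was made.

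**Figure D4:**
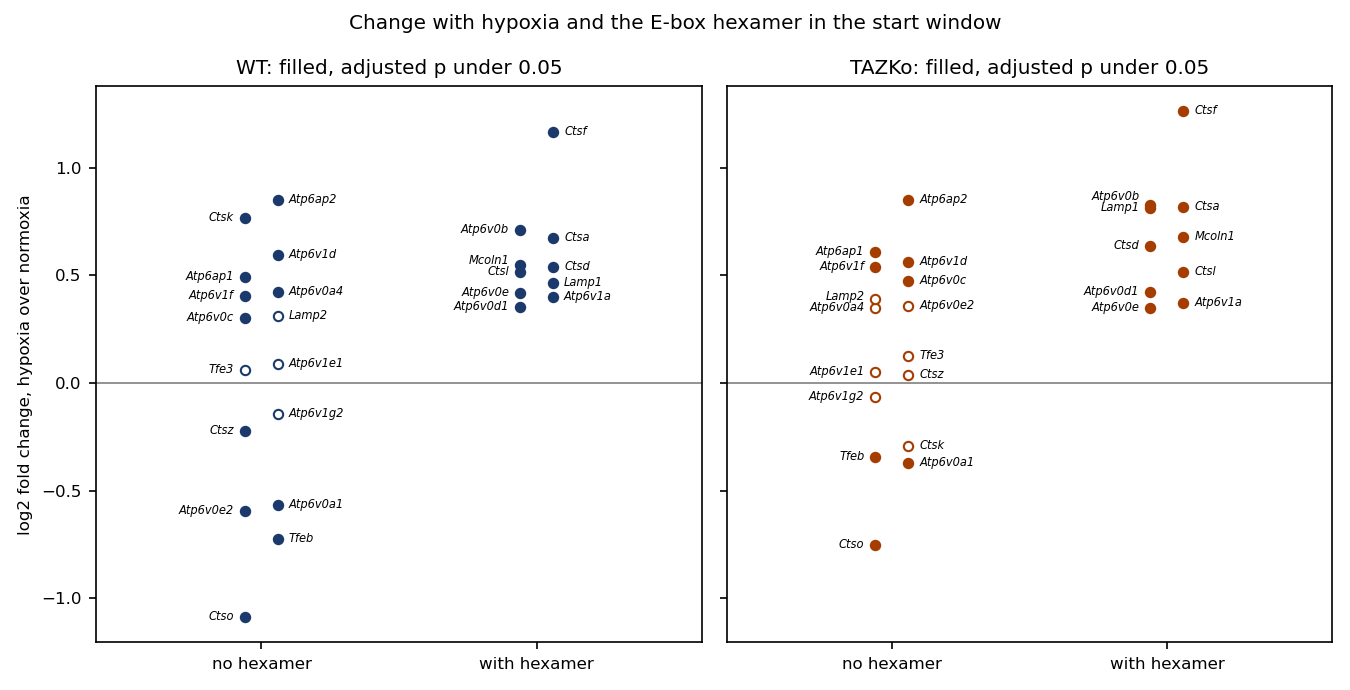
Log2 fold change with hypoxia (vertical axis) of tested members with a RefSeq start window, for windows without (16 members) and with (10 members) the E-box hexamer; left, WT; right, TAZKo; filled points, adjusted p under 0.05. The 10 members with the hexamer all lie above 0, and Tfeb, Ctso and Atp6v0a1 lie below 0 in both genotypes among those without it.

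Fewer members differed between the genotypes. In normoxia, 1 tested member was higher and 9 were lower in the samples labelled TAZKo than in WT, or 31.2%, where 30.4% of all genes were called (15.6% higher and 14.9% lower). In hypoxia 5 were higher and 5 lower, again 31.2%, where 32.8% of all genes were called (15.8% higher and 16.9% lower). Taken over both directions, the share of members called was thus close to that of all genes. In normoxia the members called were chiefly lower, where the calls over all genes were split nearly evenly. Median log2 differences of the tested members were -0.08 in normoxia and -0.04 in hypoxia. Of the 32, 4 were lower in both conditions: Atp6v1b2, Atp6v0e2, Atp6v0a4 and Ctsf. Of the others, 6 were called in normoxia alone, 6 in hypoxia alone and 16 in neither. This split was not taken over all genes.

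**Figure D5:**
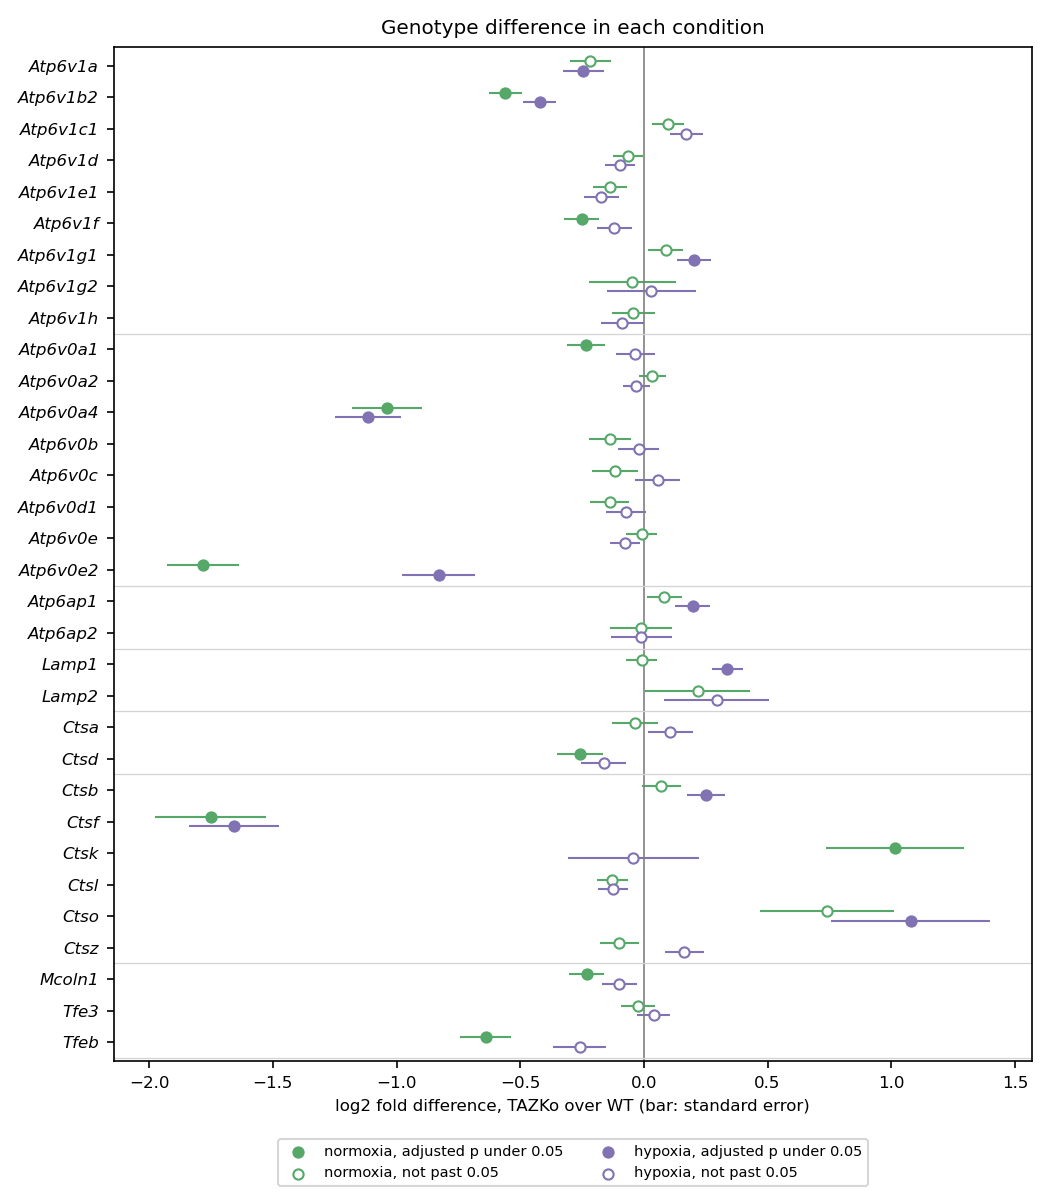
Log2 fold difference between TAZKo and WT samples (horizontal axis) for the 32 tested members in normoxia (green) and hypoxia (purple), in the order of the hypoxia plot; bars, standard error; filled points, adjusted p under 0.05. Atp6v1b2, Atp6v0a4, Atp6v0e2 and Ctsf lie left of 0 in both conditions, and Lamp1 is near 0 in normoxia and at 0.34 in hypoxia.

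Atp6v1b2, in practice the sole B subunit gene of these cells, had the lowest adjusted p in both conditions among pump genes at 10 CPM or more. It was at 174, 171 and 167 CPM in WT normoxia and 117, 117 and 113 CPM in TAZKo normoxia, and at 202, 172 and 179 CPM in WT hypoxia and 136, 146 and 131 CPM in TAZKo hypoxia. No TAZKo sample reached the lowest WT sample of either condition. The log2 difference was -0.56 (SE 0.0661, adjusted p = 2.63e-05) in normoxia and -0.42 (SE 0.0659, adjusted p = 0.000278) in hypoxia, and was called in each leave-one-out fit. Atp6v1b2 lies on chromosome 8, whose 796 tested genes had a median log2 difference of -0.16 in normoxia and -0.14 in hypoxia. The part of that shift in the result was not tested. Its partner gene Atp6v1a was at 198, 241 and 244 CPM in WT normoxia, 182, 199 and 206 CPM in TAZKo normoxia, 319, 284 and 295 CPM in WT hypoxia and 247, 267 and 244 CPM in TAZKo hypoxia. The difference for Atp6v1a was -0.24 in hypoxia (adjusted p = 0.0362) and -0.22 in normoxia (adjusted p = 0.0632). The normoxia value of Atp6v1a was called without WT normoxia sample 1 (log2 -0.31, adjusted p = 0.0018) and with the replicate block (log2 -0.22, adjusted p = 0.0443). It was also called with DESeq2 size factors, upper quartile scaling, the DESeq2 test, no filter, a mean of at least 5 CPM or WT normoxia sample 1 as the TMM reference (adjusted p = 0.0113 to 0.0409). Its hypoxia call ended without WT hypoxia sample 1 or 3, TAZKo hypoxia sample 1 or 3 or TAZKo normoxia sample 2 (log2 -0.25 to -0.20, adjusted p = 0.0511 to 0.12).

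Wider log2 differences were found in scarce genes. Atp6v0e2, the minor e subunit gene, was at 5.13, 4.52 and 4.56 CPM in WT normoxia, 1.35, 1.3 and 1.45 CPM in TAZKo normoxia, 2.95, 3.72 and 2.77 CPM in WT hypoxia and 1.7, 1.76 and 1.81 CPM in TAZKo hypoxia. Each TAZKo sample was below each WT sample (log2 -1.78, SE 0.145, adjusted p = 8.4e-07 in normoxia; log2 -0.83, SE 0.147, adjusted p = 0.000726 in hypoxia). Its share of the e subunit genes per kb was 8.29% in WT normoxia and 2.55% in TAZKo normoxia. Atp6v0a4 was lower by a log2 difference of -1.04 in normoxia and -1.11 in hypoxia, and Ctsf, a little studied cysteine cathepsin, by -1.75 and -1.66. Ctsf lies on chromosome 19, whose median log2 difference over 492 tested genes was -0.27 in normoxia and -0.28 in hypoxia, and the part of that shift was not tested.

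Tfeb was lower in TAZKo normoxia than in WT normoxia, where its 3 samples at 24.5 to 25.7 CPM lay below the WT samples at 35.6 to 44.8 CPM (log2 -0.64, SE 0.104, adjusted p = 0.000388). In hypoxia the WT samples, at 20.4 to 27 CPM, and the TAZKo samples, at 18.4 to 20.6 CPM, overlapped (log2 -0.26, adjusted p = 0.08). Without WT normoxia sample 1 or WT hypoxia sample 2, the hypoxia value was called, at -0.26 and -0.36. Tfe3 differed by -0.02 in normoxia and 0.04 in hypoxia on the log2 scale, with no call.

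Further members were lower in TAZKo normoxia at adjusted p-values near the threshold. Atp6v1f, for the F subunit, was at 50.2, 44.9 and 46.4 CPM in WT and 40.9, 38 and 40 CPM in TAZKo normoxia (log2 -0.25, adjusted p = 0.0164). The value of Atp6v1f was -0.22 (adjusted p = 0.0726) without TAZKo normoxia sample 2. Mcoln1, also on chromosome 8, differed by -0.23 (adjusted p = 0.0266), Atp6v0a1 by -0.23 (adjusted p = 0.0365) and Ctsd by -0.26 (adjusted p = 0.0482). These 3 calls ended without WT normoxia sample 1, at -0.17 (adjusted p = 0.0641), -0.16 (adjusted p = 0.0913) and -0.18 (adjusted p = 0.124). All 3 also ended without TAZKo normoxia sample 2 or 3 (adjusted p = 0.0669 to 0.141) and with only the samples compared (adjusted p = 0.0527 to 0.0823). Atp6v0a1 further missed the threshold without TAZKo hypoxia sample 1 or 2 (adjusted p = 0.0514 and 0.0518), and Ctsd without TAZKo normoxia sample 1, WT hypoxia sample 3 or any 1 of the TAZKo hypoxia samples (adjusted p = 0.0579 to 0.0645) and with library size alone (adjusted p = 0.0551). Ctsk was higher in TAZKo normoxia, at 0.873 against 0.434 CPM (log2 1.01, adjusted p = 0.014), a call lost without WT normoxia sample 2 or TAZKo normoxia sample 3 (adjusted p = 0.0593 and 0.0877). Ctso had a log2 difference of 0.74 in normoxia (adjusted p = 0.0521), which with the replicate block was 0.77 (adjusted p = 0.0157). Ctso was likewise called with library size alone, the DESeq2 test, no filter or lane as a covariate, and without WT normoxia sample 3 or WT hypoxia sample 1 or 2 (adjusted p = 0.000191 to 0.0482). The number of members called in normoxia was 6 without TAZKo normoxia sample 2 or 3.

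In hypoxia, Lamp1 had the lowest adjusted p of the members that were higher in the samples labelled TAZKo. Its 3 TAZKo samples, at 768 to 813 CPM, lay above the WT samples at 585 to 666 CPM (log2 0.34, SE 0.0624, adjusted p = 0.000998), a call kept in each leave-one-out fit. In normoxia the Lamp1 samples overlapped (log2 -0.01, adjusted p = 0.935). Atp6v1g1, for the G subunit, was at 70.8, 74.3 and 73.4 CPM in WT hypoxia and 85.3, 84.1 and 81.9 CPM in TAZKo hypoxia. Atp6ap1, whose product assists pump assembly, was at 287, 246 and 257 CPM in WT hypoxia and 303, 309 and 293 CPM in TAZKo hypoxia. Neither gene overlapped between the groups, with log2 differences of 0.20 each (adjusted p = 0.041 and 0.0453). Ctsb differed by 0.25 (adjusted p = 0.0248), with WT hypoxia sample 1 within the TAZKo range, and Ctso by 1.08 (adjusted p = 0.02).

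Apart from Lamp1, these calls ended when single libraries were left out. The call of Atp6v1g1 ended without any 1 of the 6 hypoxic samples, WT normoxia sample 3 or TAZKo normoxia sample 3 (log2 0.18 to 0.22, adjusted p = 0.0502 to 0.116), with no filter (adjusted p = 0.0523) and with WT normoxia sample 1 as the TMM reference (adjusted p = 0.0543). That of Atp6ap1 ended without WT hypoxia sample 2 or 3, any 1 of the TAZKo hypoxia samples, WT normoxia sample 2 or TAZKo normoxia sample 2 or 3 (log2 0.15 to 0.22, adjusted p = 0.0539 to 0.177), with DESeq2 size factors (adjusted p = 0.0607) and with the DESeq2 test (adjusted p = 0.0534). Ctsb lost its call without WT hypoxia sample 2 or 3 or TAZKo hypoxia sample 1 or 2 (log2 0.19 to 0.24, adjusted p = 0.0799 to 0.115). Ctso lost its call without WT hypoxia sample 1 or 3 or TAZKo hypoxia sample 3 (log2 0.81 to 1.09, adjusted p = 0.0578 to 0.0889). The number of members called in hypoxia was 6 without WT hypoxia sample 3, TAZKo hypoxia sample 1 or TAZKo hypoxia sample 3, and 15 without WT normoxia sample 1, where Ctsz, Lamp2, Atp6v1e1, Atp6v1c1 and Tfeb were added. Atp6v1h, Ctsl and Lamp2 were called in neither condition, with log2 differences of -0.04 and -0.09, -0.13 and -0.12, and 0.22 and 0.30 in normoxia and hypoxia. With no filter or only the samples compared, the hypoxia difference of Lamp2 was called (log2 0.32 and 0.31, adjusted p = 0.000308 and 0.000499).

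Whether a member responded to hypoxia differently in the 2 genotypes was tested as an interaction. Of the 32 tested members 1, Atp6v0e2, was called, or 3.12%, where 2.43% of all genes were called, 0.722% with a larger and 1.71% with a smaller log2 response in TAZKo samples. Atp6v0e2 fell by 0.59 in WT (adjusted p = 0.00189) and had a value of 0.36 in TAZKo samples (adjusted p = 0.101), and the difference was 0.95 (SE 0.209, adjusted p = 0.0301). That call ended without any 1 of the 6 TAZKo samples or WT hypoxia sample 3 (log2 0.858 to 1.005, adjusted p = 0.0667 to 0.0914). Lamp1 had a difference of 0.35 (SE 0.0882, adjusted p = 0.0599) and was called with DESeq2 (adjusted p = 0.00462), with the replicate block (adjusted p = 0.0436), and without WT normoxia sample 1 or WT hypoxia sample 1 (adjusted p = 0.0177 and 0.0273). Tfeb, at 0.38 (SE 0.149, adjusted p = 0.224), and Ctsk, at -1.06 (SE 0.388, adjusted p = 0.192), had differences of similar or larger size with larger errors. For Atp6v1h, Ctsl and Atp6ap2 the differences were -0.04 (SE 0.121), 0.00 (SE 0.0859) and 0.00 (SE 0.176), and for Ctsd, Ctsb, Mcoln1, Lamp2 and Tfe3 they were 0.10, 0.18, 0.13, 0.08 and 0.06, none of them called.

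Of 80 other lysosomal genes, taken from lists of hydrolases, other membrane proteins, sorting receptors and the mTORC1 docking complex, 75 were tested. In WT, 35 rose and 15 fell with hypoxia, and in TAZKo samples 37 rose and 13 fell, or 66.7% in each, against the 51% and 43.8% of all genes given above. The 31 glycosidases, sulfatases and lipid hydrolases were mixed in WT, with 12 higher, 7 lower and a median log2 change of 0.02. In TAZKo samples 14 of them were higher and 5 lower, with a median of 0.157. Among the 12 tested genes of mTORC1 docking and TFEB control, 8 rose and 2 fell in each genotype. Rragd, a Rag GTPase gene that is itself a TFEB target, went from 2.67 to 12.1 CPM in WT (log2 2.18, SE 0.129, adjusted p = 1.37e-08) and from 6.04 to 22.4 CPM in TAZKo samples (log2 1.88). Fnip1 and Rragc, of the same list, rose by 1.22 and 1.07 in WT and by 1.021 and 0.95 in TAZKo samples. Flcn, whose product acts on RagC and RagD in the control of TFEB, rose by 0.77 in WT and 1.104 in TAZKo samples, and the cystine exporter gene Ctns by 0.92 and 1.14. Sgsh, for a heparan sulfatase, fell by 1.26 in WT and by 0.59 in TAZKo samples, and the cation channel gene Tpcn1 by 0.88 and 0.53. Hgsnat fell by 0.59 in WT and by 0.43 in TAZKo samples (adjusted p = 3.57e-05 and 0.000558). Mfsd8 fell by 0.55 in TAZKo samples and had a value of -0.30 in WT (adjusted p = 0.102).

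Between genotypes, 16 of these 75 genes were higher and 10 lower in TAZKo normoxia, or 34.7%, and 26 were higher and 10 lower in TAZKo hypoxia, or 48%, against 30.4% and 32.8% of all genes. Manba, for beta-mannosidase, was lower in both conditions (log2 -1.089 and -1.004), as were Npc1 (-0.30 and -0.37) and Tmem192 (-0.38 and -0.30), in normoxia and hypoxia. Gla was lower in hypoxia (-0.73) and had a value of -0.29 in normoxia (adjusted p = 0.0531), and Neu1 was lower in normoxia (-0.37) and had a value of -0.27 in hypoxia (adjusted p = 0.0671). Arsb and Ids, for 2 sulfatases, were higher in both conditions (0.64 and 0.78, and 0.74 and 0.73). Ppt1 (0.46 and 0.40) and Rragd (1.18 and 0.88) were also higher in both.

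Some counts may hold reads of neighbours or copies. Of the 50-base words of the members' transcripts, 36.6% in Ctsd are shared with Gm49369, an annotated gene on the same strand, 28.1% in Ctsl with other genes, chiefly Gm47123 on the opposite strand, 19.2% in Atp6v1g1 and 12.2% in Atp6v0c chiefly with pseudogenes, and 15.8% in Ctsa and 15.4% in Ctsb chiefly with Pltp and Fdft1. The library kit does not mark strand, so reads from overlapped stretches of Lamp1, Ctsa, Ctsb and Ctsl cannot be told apart from those of the genes that overlap them on the other strand (Grtp1, Pltp, Fdft1 and Gm47123). The same holds for Atp6v0b, with 11.8% of its exon bases overlapped by Gm12841, and Atp6v0a2, with 9.86% overlapped by 4930404A12Rik.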

How the data were processed

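Libraries were made from total RNA with the TruSeq RNA kit, per the labels' protocols. The authors deposited 1 table of whole-number read counts per Ensembl gene and sample, with no recorded normalization. The build mm10 is named in the submitters' processing notes, and the aligner, the counting program and the treatment of reads that match several genes are not given in the sources used here. Symbols were matched by ID for 48349 of 48709 genes, and exon lengths and positions came from GENCODE M21 (GRCm38). The members, gene lists and tests were chosen with earlier results of these data known.

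Genes were filtered with filterByExpr (14408 kept), scaled by TMM and tested in one edgeR quasi-likelihood model (version 4.0.16, under R 4.3.3 with limma 3.58.1) that held all 12 samples and a coefficient for every group. P-values were adjusted by Benjamini-Hochberg over all genes tested, with a threshold of 0.05. The procedure was also run on simulated data with changes in a single group and no outlying library, which checks the code and not these results. The standard error is the log2 change divided by the square root of F. CPM are given as mean ± SD (n = 3), and limits from 3 counts cover counting error only, since reads carry no molecular identifiers. Shared reads were gauged by 50-base words of annotated transcripts.

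Named in full per comparison were the 6 members with the largest called change that reached a mean of 10 CPM in either group and whose groups did not overlap (for the interaction, the call alone), and always Atp6v1h, Lamp1, Lamp2, Ctsd, Ctsb, Ctsl, Tfeb, Tfe3 and Mcoln1. Of the other lysosomal genes, up to 3 rises and 3 falls per comparison were named by the same conditions. The remaining members are given by their means or log2 changes.

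Titles number the samples of each group 1 to 3. Deviations of same-numbered samples from their group means correlated at 0.354, 0.149 and 0.228 between genotypes in normoxia and at 0.368, 0.204 and 0.152 between conditions in WT. Samples 2 and 3 correlated with each other's numbers at 0.112 and 0.116 between genotypes in normoxia and at 0.18 and 0.147 between conditions in WT. These values set sample 1 apart from samples 2 and 3 and do not show that 2 pairs with 2 or 3 with 3. Same-numbered samples correlated at 0.055, -0.024 and 0.121 between genotypes in hypoxia and at 0.028, -0.024 and 0.095 between conditions in TAZKo samples, which does not pair them. Alternatives were other scalings, DESeq2 1.42.0, other filters, the replicate block, lane as a covariate, only the samples compared, and leaving out each sample. Taking WT normoxia sample 1 as the TMM reference was added after seeing the data.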

Additional observations from a re-analysis of the deposited data

Results flagged for a closer look

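The response to hypoxia differed between the genotypes, by the interaction test, for 1 member and 2 of the other lysosomal genes. These are 3.12% of the tested members and 2.67% of the 75 other genes tested, where 2.43% of all genes were called. For Atp6v0e2, the minor e subunit gene, the log2 response in TAZKo samples minus that in WT was 0.95, a call that ended without any 1 of the 6 TAZKo samples or WT hypoxia sample 3 (adjusted p = 0.0667 to 0.0914). For Rraga, a Rag GTPase gene of mTORC1 docking, it was -0.40 (SE 0.0856, adjusted p = 0.0279, edgeR). For Abca2, a lysosomal transporter gene, it was 0.45 (SE 0.0875, adjusted p = 0.0167, edgeR). No alternative fits are given here for Rraga and Abca2, so how far their calls depend on single libraries or the scaling is not known.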

How the results depend on the processing

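Over all alternatives and comparisons, 3201 recomputed values of the tested members kept their direction and side of the threshold, 116 lost and 52 gained a call, and 89 changed sign. No value that changed sign was called before or after. The number of members called with hypoxia was 22 to 26 in WT and 20 to 26 in TAZKo samples when single libraries were left out, and 6 to 11 and 6 to 15 for the genotype difference in normoxia and hypoxia. For the interaction it was 0 to 2. With DESeq2 size factors, upper quartile scaling, library size alone, the DESeq2 test, no filter, the replicate block or WT normoxia sample 1 as the TMM reference it was 2, the added member being Lamp1. With a mean of at least 5 CPM, where Atp6v0e2 is not tested, it was 1. All genes called for the interaction, 350, were 574 with DESeq2, 727 with no filter, 639 with the replicate block and 163 to 613 without single libraries. Apart from the calls of Atp6v1a, Ctso, Ctsk and Lamp1 given above, the block changed no call of a member, and it gave 12, 10, 25, 23 and 2 called members for the genotype difference in normoxia and in hypoxia, the hypoxia response in WT and in TAZKo samples, and the interaction.

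With library size alone as the scaling, the median log2 hypoxia change of all genes was -0.097 in WT and -0.103 in TAZKo samples (0.009 and -0.009 with TMM), with 2966 genes higher and 4817 lower in WT (3750 and 3605 with TMM) and 2470 and 4393 in TAZKo samples (3198 and 3111). The medians of the members were then 0.295 and 0.312, still above those of all genes. The interaction split of 104 larger and 246 smaller was 140 and 204 with upper quartile scaling, 240 and 334 with the DESeq2 test and 152 and 217 with WT normoxia sample 1 as the reference. It was 400 and 327 with no filter and 304 and 309 without WT hypoxia sample 1. Not divided by length, the share of Atp6v0a1 among the a subunit genes was 27.5% (WT) and 25.9% (TAZKo) in normoxia and 20.1% (WT) and 20.4% (TAZKo) in hypoxia.

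Among the members named in full per comparison, signs changed for the WT hypoxia value of Tfe3 (-0.002, -0.047 and -0.015) and of Ctsb (-0.025, -0.07 and -0.039) with upper quartile scaling, library size alone and no filter. Ctsb was also at -0.013 with only the samples compared and -0.016 with WT normoxia sample 1 as the reference, and the interaction of Atp6v1h was 0.008 with no filter. Without single libraries, WT hypoxia values ran from -0.021 to 0.131 for Tfe3 and -0.074 to 0.101 for Ctsb. Genotype values in normoxia ran from -0.084 to 0.047 for Tfe3, -0.063 to 0.388 for Lamp2, -0.042 to 0.031 for Lamp1 and -0.137 to 0.006 for Atp6v1h. Interaction values ran from -0.093 to 0.049 for Atp6v1h, -0.008 to 0.115 for Tfe3, -0.04 to 0.065 for Ctsl and -0.102 to 0.357 for Lamp2. The cause was not tested. Depth limits the 10 untested members, of which nothing can be said below 3 counts per library.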
